A study of Mus musculus with 9 samples.

Results

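Muscleblind-like 3 (Mbnl3) and 8 other regulators of alternative splicing were followed in mouse embryonic fibroblasts (MEFs) that expressed a foreign homeobox gene. The 9 genes were Mbnl1, Mbnl2 and Mbnl3 of the muscleblind family, Celf1 and Celf2 of the CELF family, Rbfox2, Qk (Quaking), and Ptbp1 and Ptbp2, which encode the polypyrimidine tract binding proteins. They were picked by name from the 22068 genes of the deposited count table. Mbnl3 was picked because its level differed between the conditions, so its values are a description and carry no p-value. The cells were primary C57Bl/6 MEFs at passage 2 in 3 conditions of 3 libraries each. Eutherian CRX cells received a plasmid with V5-tagged human CRX, metatherian CRX cells a plasmid with V5-tagged opossum CRX, and control cells a plasmid without a homeobox gene. All plasmids carried puromycin resistance, and all cells were electroporated, selected in puromycin for 5 days and left to recover, for 48 h according to the labels. CRX is a homeodomain transcription factor of photoreceptors that fibroblasts do not normally use, and the promoter that drove it is not given in the sources used here. The comparison asks how the CRX of each mammalian lineage altered the transcriptome of the same cells.

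These proteins bind short motifs in precursor RNA and decide which exons are kept. Muscleblind proteins bind YGCY motifs, and those of Mbnl1 and Mbnl2 favour adult exon choices in muscle, heart and brain. CELF proteins bind GU-rich motifs and often act on the same exons in the opposite direction. PTB proteins bind pyrimidine-rich tracts and mostly repress exons, with Ptbp1 in most dividing cells and Ptbp2 in developing neurons, while RBFOX2 and Quaking bind next to exons and repress or promote them depending on the side of the exon.

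The depth was 54145701 to 94699657 counts per library, and the 9 genes had 703 to 38179 counts each, so that counting error was small beside the differences between libraries. Mouse Crx had no count in the 3 control libraries, 627, 995 and 313 counts under eutherian CRX, and 4, 0 and 0 under metatherian CRX. Whether the counts under eutherian CRX are reads of the human gene, and whether reads of the opossum gene align to mouse Crx, was not tested. The paper reports from immunocytochemistry that both transfected genes gave protein. All 8 fibroblast markers were counted in every library, with a summed level of 40707 to 47579 counts per 1000000 counts of the library (CPM) in control, 18121 to 38889 under eutherian CRX and 22562 to 44247 under metatherian CRX. Under metatherian CRX, 4 of the 8 lay below control without overlap (Col1a1, Col1a2, Col3a1 and Pdgfrb) and 1 above it (Pdgfra). Under eutherian CRX 3 lay below (Col1a1, Col1a2 and Thy1) and 0 above. Of all genes tested, 23.8% did not overlap control under metatherian CRX (11.3% on the higher side) and 14.4% under eutherian CRX (6.08% on the higher side). Col1a1, for example, was at 7575 to 10056 CPM in control, 1091 to 6531 CPM under eutherian CRX and 1047 to 5333 CPM under metatherian CRX. Of the skeletal muscle markers, 1 (Acta1) lay below control without overlap in both CRX conditions. The muscle factors Myod1 and Myog were at 0 in some libraries and reached at most 0.0528 and 0.028 CPM. The summed level of 5 neuronal markers was 90.4 to 150 CPM in control, 52.5 to 166 under eutherian CRX and 52.2 to 73.2 under metatherian CRX, with Rbfox3 at no more than 0.056 CPM. Those of 5 skeletal muscle markers, at 26.5 to 106, 15.3 to 32.8 and 15.8 to 29.3 CPM, and of 5 macrophage and leukocyte markers, at 11.3 to 39.0, 5.03 to 22.3 and 5.19 to 10.9 CPM, also varied between libraries. The neuronal and macrophage sums of the metatherian CRX libraries all lay below those of control, and those of eutherian CRX overlapped control. Taken singly, only 1 of the 5 neuronal markers (Map2) and 1 of the 5 macrophage markers (Cd68) lay below control without overlap under metatherian CRX. The other markers of these 2 lists overlapped control, so the lower sums do not describe each list as a whole. The 4 epithelial markers summed to 0.675 to 3.45, 0.465 to 12.5 and 1.70 to 9.09 CPM, and the 4 endothelial markers to 12.2 to 16.7, 14.1 to 18.3 and 11.4 to 18.3 CPM. Their part in the results was not tested. The libraries numbered 3 stood apart from numbers 1 and 2. On the first principal component, which held 49.8% of the variance, eutherian CRX replicate 3 lay at 78.8 against -42.5 and -46.2 for the other eutherian CRX replicates.

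Mbnl3 was highest under metatherian CRX and lowest under eutherian CRX. The gene lies at chrX:51113494-51206035 on the minus strand of GRCm38 and has 9260 exonic bases, of which 7525 are in the last exon. Its level was 15.4, 13.8 and 24.5 CPM in the 3 control libraries, 10.4, 10.4 and 16.5 CPM under eutherian CRX and 34.6, 25.1 and 30.3 CPM under metatherian CRX. Every metatherian CRX library was above every library of the other conditions, while control and eutherian CRX overlapped only through eutherian CRX replicate 3. The mean was 17.9 ± 5.77 CPM in control, 12.5 ± 3.51 CPM under eutherian CRX and 30.0 ± 4.77 CPM under metatherian CRX (SD, n = 3). The fitted log2 fold change was 0.79 (SE 0.19, 1.73-fold) for metatherian CRX against control, -0.51 (SE 0.18) for eutherian CRX against control and 1.30 (SE 0.19, 2.47-fold) for metatherian against eutherian CRX. The library of the same number was higher under metatherian CRX and lower under eutherian CRX than in control for 3 of 3 numbers. In these bulk samples a change in RNA per cell and a change in the share of cells that express a gene cannot be told apart.

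**Figure D1:**
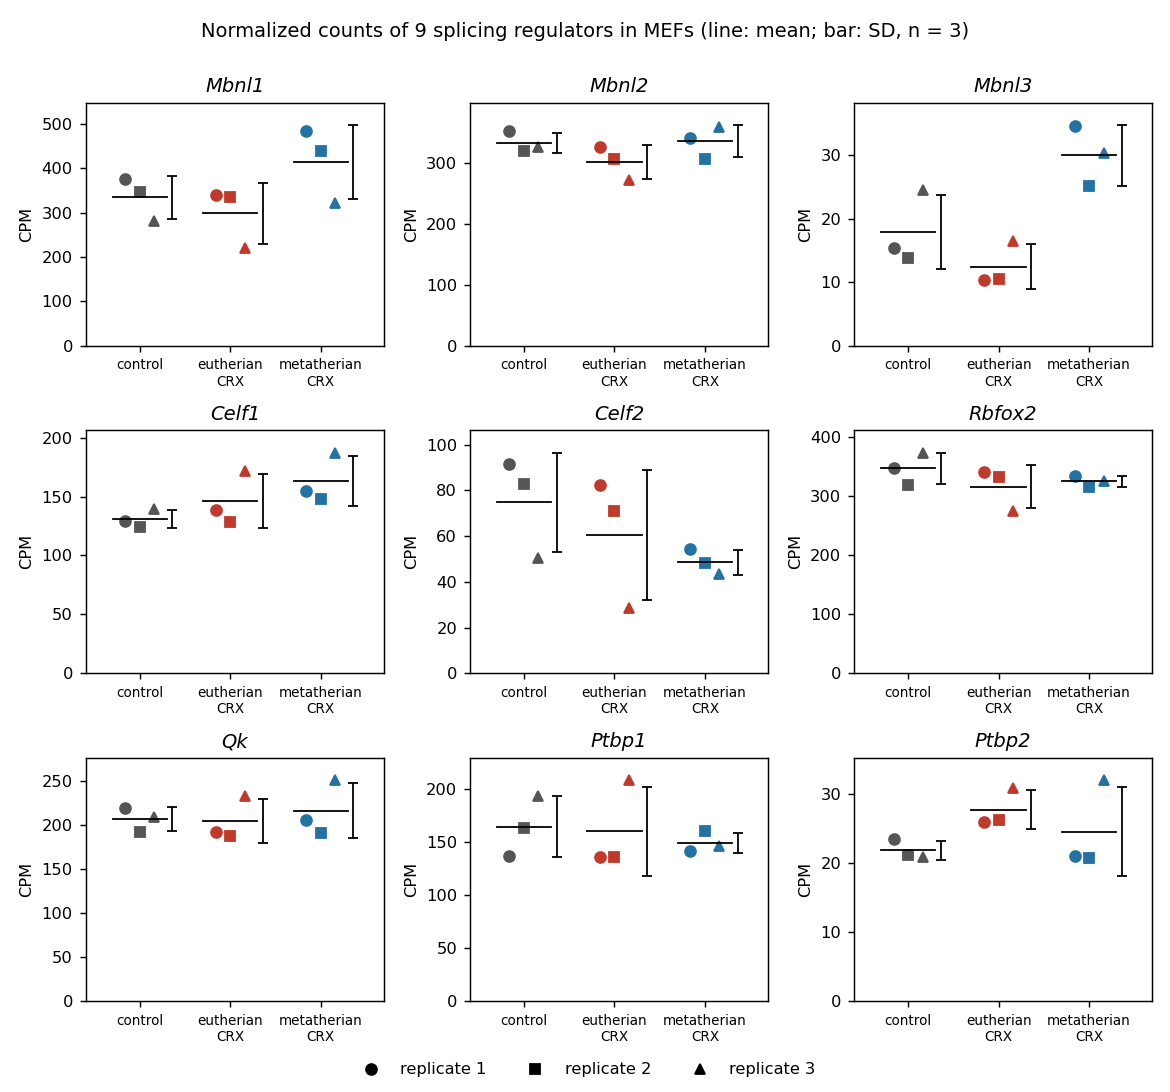
Level of each of the 9 splicing regulators in CPM (y axis, from 0) in control, eutherian CRX and metatherian CRX MEFs. Each point is a library, marked by its replicate number, with the mean (line) and the SD (bar, n = 3) beside it. Mbnl3 spans 10.4 to 34.6 CPM with the 3 metatherian CRX libraries on top, and the replicates 3 (triangles) of Mbnl1 and Celf2 are the lowest of each condition.

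Mbnl1 and Mbnl2 were the abundant muscleblind genes and had smaller log2 fold changes than Mbnl3. They lie at chr3:60472791-60629750 and chr14:120275661-120431698 on the plus strand. Mbnl1, whose protein is the main muscleblind regulator outside the brain, was at 376, 346 and 281 CPM in control, 341, 335 and 219 CPM under eutherian CRX and 483, 438 and 322 CPM under metatherian CRX. Replicates 1 and 2 of metatherian CRX exceeded all other libraries, and its replicate 3 lay within the range of control. With n = 3 a condition, edgeR gave a log2 fold change of 0.30 (SE 0.11) for metatherian CRX against control, at an adjusted p of 0.189, and 0.48 (SE 0.11) for metatherian against eutherian CRX, at 0.266. Eutherian CRX against control was at -0.18 (SE 0.11, edgeR adjusted p = 0.680). For both comparisons of metatherian CRX, Mbnl1 was higher in 3 of 3 numbers. Mbnl2, which is best known for its role in the brain, was at 353, 321 and 327 CPM in control, 327, 307 and 273 CPM under eutherian CRX and 342, 308 and 360 CPM under metatherian CRX. All 3 conditions overlapped, and the log2 fold changes of Mbnl2 in edgeR were 0.01, -0.14 and 0.16, with adjusted p-values of 0.960, 0.767 and 0.649 in the same order (metatherian CRX against control, eutherian CRX against control, metatherian against eutherian CRX). Without eutherian CRX replicate 3 alone the last pair of values became -0.06 and 0.07, and leaving out libraries gave -0.20 to -0.06 and 0.04 to 0.23. Mbnl1 in eutherian CRX against control ranged from -0.25 to -0.10 in the same way.

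Celf1 and Celf2, whose proteins regulate many of the same exons as the muscleblind proteins, had log2 fold changes of opposite sign under metatherian CRX. Celf1, on chr2:90940387-91019497 (plus strand), was at 130, 125 and 140 CPM in control, 139, 128 and 172 CPM under eutherian CRX and 155, 148 and 187 CPM under metatherian CRX. The metatherian CRX and control libraries of Celf1 did not overlap. Celf2, on chr2:6539694-7396227 (minus strand), was at 91.4, 83.0 and 50.4 CPM in control, 82.4, 70.9 and 28.6 CPM under eutherian CRX and 54.2, 48.4 and 43.4 CPM under metatherian CRX. The 3 metatherian CRX libraries of Celf2 lay close together, between the high replicates 1 and 2 and the low replicate 3 of eutherian CRX, and overlapped control only through control replicate 3. For metatherian CRX against control, edgeR gave a log2 fold change of 0.31 (SE 0.10, adjusted p = 0.158) for Celf1 and -0.56 (SE 0.22, adjusted p = 0.219) for Celf2, and Celf1 was higher and Celf2 lower in 3 of 3 numbers. Against eutherian CRX the values were 0.16 (SE 0.10, edgeR adjusted p = 0.576) and -0.19 (SE 0.22, edgeR adjusted p = 0.788). Eutherian CRX against control gave 0.15 for Celf1 and -0.37 for Celf2 (edgeR adjusted p = 0.726 and 0.688). Without eutherian CRX replicate 3 alone, Celf2 was at -0.10 and Celf1 at 0.09 in this comparison, and Celf2 at -0.49 for metatherian against eutherian CRX. Leaving out libraries gave -0.54 to -0.10 for Celf2 and 0.06 to 0.20 for Celf1 in eutherian CRX against control.

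The libraries of Rbfox2 and Qk overlapped across the 3 conditions. Rbfox2 (chr15:77078990-77307053, minus strand), the RBFOX gene of non-neuronal cells, was at 347, 319 and 373 CPM in control, 340, 331 and 274 CPM under eutherian CRX and 334, 315 and 325 CPM under metatherian CRX. Qk (chr17:10202856-10319361, minus strand), whose product regulates exons in muscle, glia and mesenchymal cells, was at 219, 192 and 209 CPM in control, 192, 187 and 233 CPM under eutherian CRX and 206, 191 and 251 CPM under metatherian CRX. For metatherian CRX against control, the log2 fold change was -0.09 (SE 0.13, edgeR adjusted p = 0.715) for Rbfox2 and 0.05 (SE 0.11, edgeR adjusted p = 0.826) for Qk. With all 9 libraries, no comparison of either gene exceeded 0.14 in size. Leaving out libraries gave -0.15 to 0.02 for Rbfox2 and -0.05 to 0.13 for Qk in this comparison. For eutherian CRX against control it gave -0.24 to 0.01 for Rbfox2 and -0.12 to 0.06 for Qk.

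Of the PTB genes, Ptbp1 overlapped between all conditions, and Ptbp2 was higher under eutherian CRX than in control in every library. Ptbp1 (chr10:79854432-79864435, plus strand) was at 136, 163 and 193 CPM in control, 136, 135 and 208 CPM under eutherian CRX and 141, 160 and 146 CPM under metatherian CRX. Replicate 3 was the highest Ptbp1 library in control and under eutherian CRX but not under metatherian CRX. The gene shares 178 exonic bases with Lppr3 on the opposite strand, whose level was 1.99 to 10.3 CPM, and the strand setting of the counting is not given in the sources used here. Ptbp2 (chr3:119718741-119783799, minus strand) was at 23.4, 21.2 and 20.9 CPM in control, 25.9, 26.3 and 30.9 CPM under eutherian CRX and 20.9, 20.7 and 32.0 CPM under metatherian CRX. The log2 fold change of Ptbp2 was 0.33 (SE 0.16, edgeR adjusted p = 0.587) for eutherian CRX against control and 0.14 (SE 0.16, edgeR adjusted p = 0.666) for metatherian CRX against control. The former was 0.17 without control replicate 3 and 0.46 without control replicate 1. The latter turned to -0.10 without replicate 3 of every condition, and metatherian CRX replicate 3 was its only library above control. For Ptbp1 the same comparisons gave -0.05 and -0.12 (SE 0.15 each, edgeR adjusted p = 0.961 and 0.694). Leaving out libraries gave -0.21 to 0.08 and -0.22 to 0.05 for Ptbp1, with -0.21 in the first comparison without eutherian CRX replicate 3 alone.

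None of the 8 genes beside Mbnl3 passed an adjusted p of 0.05 in edgeR in any of the 3 comparisons. The background was low as well: 0.0137% of the 14599 genes tested were called for metatherian CRX against control, 0.623% for eutherian CRX against control and 0% for metatherian against eutherian CRX. At an unadjusted p under 0.05, the counts were 3 of 8 (Mbnl1 and Celf1 higher, Celf2 lower), 0 of 8 and 1 of 8 (Mbnl1 higher), against 20.4% (9.61% higher and 10.8% lower), 9.65% and 11.7% of all genes. Libraries of the groups compared did not overlap for 1 of 8 genes (Celf1), 1 of 8 (Ptbp2) and 0 of 8, against 23.8%, 14.4% and 11.5% of all genes, and both genes were on the higher side, as were 11.3% and 6.08% of all genes. The median log2 fold change of the 8 genes was 0.03, -0.09 and 0.06, and that of all genes was -0.01, 0.01 and 0.00. DESeq2 called 0, 0 and 1 of the 8 genes (Mbnl1), where it called 9.56%, 3.46% and 2.62% of all genes. limma voom with quality weights called 3 (Mbnl1, Celf1 and Celf2), 0 and 4 (these and Ptbp2), where it called 41.6%, 14.2% and 43.2% of all genes.

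**Figure D2:**
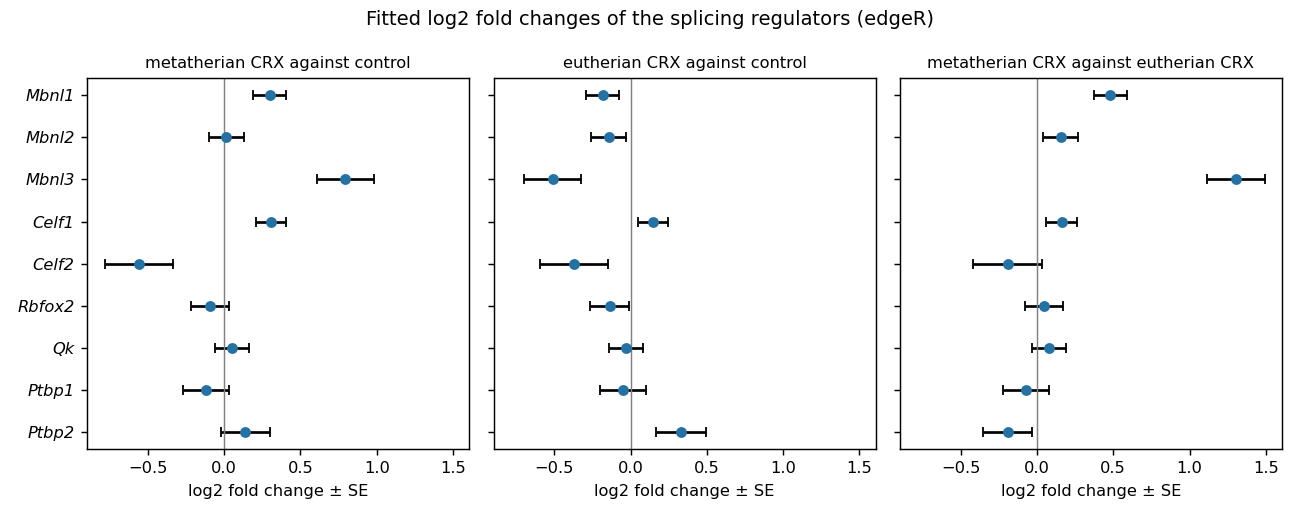
Fitted log2 fold change (x axis, edgeR) with its SE for each of the 9 genes in the 3 comparisons. Mbnl3, which was picked for its difference between the conditions, lies at 0.79, -0.51 and 1.30. The 8 other genes range from -0.56 (Celf2) to 0.31 (Celf1), from -0.37 to 0.33 and from -0.19 to 0.48.

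The libraries numbered 3 lay at an end of the range for several of these genes. Mbnl1 was lowest in replicate 3 of every condition, by 0.36, 0.62 and 0.52 on the log2 scale below the mean of numbers 1 and 2 in control, eutherian CRX and metatherian CRX. Celf2 was also lowest there in every condition, by 0.79, 1.42 and 0.24. Celf1 was highest in replicate 3 of every condition, by 0.14, 0.37 and 0.31. Of all genes, 13% were lowest and 14.4% were highest in replicate 3 of every condition. Mbnl3 was higher in replicate 3 of control and eutherian CRX by 0.75 and 0.66, and by 0.04 under metatherian CRX.

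Several values changed sides of the threshold without these libraries. Without replicate 3 of every condition, where edgeR called 23.2% of all genes for metatherian CRX against control, Celf2 was at -0.76 (adjusted p = 4.5e-04), Mbnl1 at 0.35 (adjusted p = 0.0185) and Celf1 at 0.25 (adjusted p = 0.0486). Without eutherian CRX replicate 3 alone, where 8.84% of all genes were called, Celf2 passed at -0.59 (edgeR adjusted p = 0.0404). Without metatherian CRX replicate 3 alone, where 7.09% were called, Celf2 passed at -0.87 (edgeR adjusted p = 0.039). Over the 20 alternatives run, the adjusted p for metatherian CRX against control ranged from 0.000246 to 0.736 for Celf2, from 0.000944 to 0.775 for Mbnl1 and from 0.00357 to 0.730 for Celf1, with the direction the same in all. For metatherian against eutherian CRX without replicate 3, where 22.2% of all genes were called, Mbnl1 was at 0.45 and Celf2 at -0.57 (edgeR adjusted p = 0.00712 and 0.00188), with ranges over the alternatives of 0.000151 to 0.9997 and 0.000676 to 0.9997. The Celf2 value of this comparison ran from -0.57 to 0.02 when libraries were left out, so that its direction turned. For eutherian CRX against control without replicate 3, 0 of the 8 genes were called in edgeR, against 3.95% of all genes. Mbnl3 kept its direction in all 20 alternatives, with values of 0.58 to 1.02 for metatherian CRX against control, -0.62 to -0.37 for eutherian CRX against control and 1.08 to 1.62 between the CRX conditions. Mbnl3 was picked for its difference over these same libraries, so its kept direction is a description and cannot be set against the other 8 genes.

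**Figure D3:**
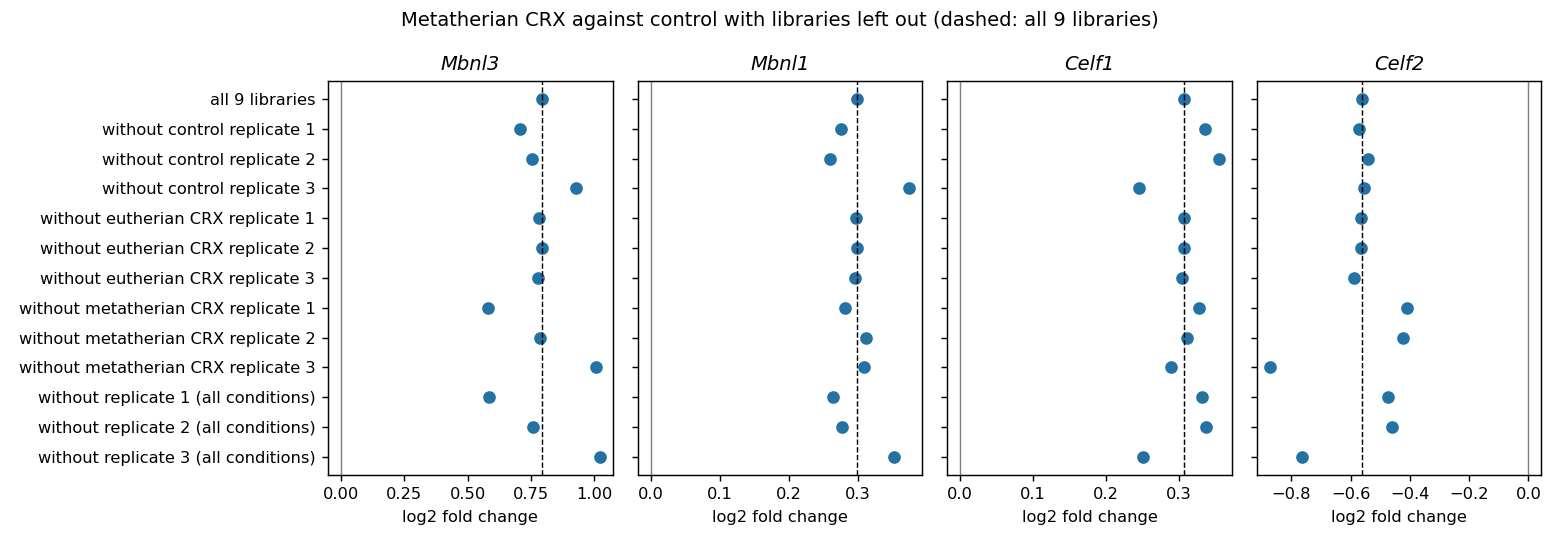
Log2 fold change of Mbnl3, Mbnl1, Celf1 and Celf2 for metatherian CRX against control (x axis) when single libraries, or the libraries of a replicate number, were left out (y axis). The dashed line is the value with all 9 libraries. Without replicate 3 of every condition, Mbnl3 moved to 1.02 and Celf2 to -0.76, and no point crossed 0. Mbnl3 was picked for its difference over these libraries, so its points are a description only.

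Per exonic length, Mbnl3 was the least abundant of the 9 genes in every condition. In fragments per 1000 bases of exon and 1000000 counts (FPKM), the order of the mean levels in control was Mbnl2 (69.7), Ptbp1 (52.8), Mbnl1 (43.9), Rbfox2 (28.5), Celf1 (16.5), Qk (15.3), Celf2 (6.85), Ptbp2 (5.76) and Mbnl3 (1.93). The ranges of neighbours overlapped for Ptbp1 and Mbnl1, Celf1 and Qk, and Celf2 and Ptbp2. With metatherian CRX, Mbnl1 (54.4 FPKM) stood above Ptbp1 (47.9 FPKM) and Ptbp2 (6.47 FPKM) above Celf2 (4.45 FPKM), with overlapping ranges for the former pair and for Celf1 and Qk. Mbnl3 reached 3.24 ± 0.515 FPKM (SD, n = 3) there, below Celf2 in each of the 3 libraries. In eutherian CRX cells, Ptbp2 (7.30 FPKM) was also above Celf2 (5.54 FPKM), with overlapping ranges, and Mbnl3 was at 1.34 ± 0.379 FPKM.

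The close relatives of the 9 genes ranged from almost no counts to a level above that of Ptbp2. The neuronal genes Celf3, Celf6 and Rbfox3 had 3 to 20, 0 to 4 and 0 to 4 counts per library, and Rbfox1 was at 2.27 to 5.36 CPM. Celf4 was at 17.0 to 22.0 CPM in control, 19.3 to 37.4 CPM under eutherian CRX and 31.1 to 40.0 CPM under metatherian CRX, and the first and last of these ranges did not overlap (edgeR log2 fold change 0.78, SE 0.23, adjusted p = 0.137). Celf5 was at 16.2 to 31.8 CPM, and Ptbp3, a PTB gene of blood and other cells, at 55.8 to 81.3 CPM. Per exonic length, Celf4 was at 2.84 to 6.68 FPKM, Celf5 at 2.50 to 4.93 FPKM and Ptbp3 at 7.43 to 10.8 FPKM, against 5.45 to 8.43 FPKM for Ptbp2.

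**Figure D4:**
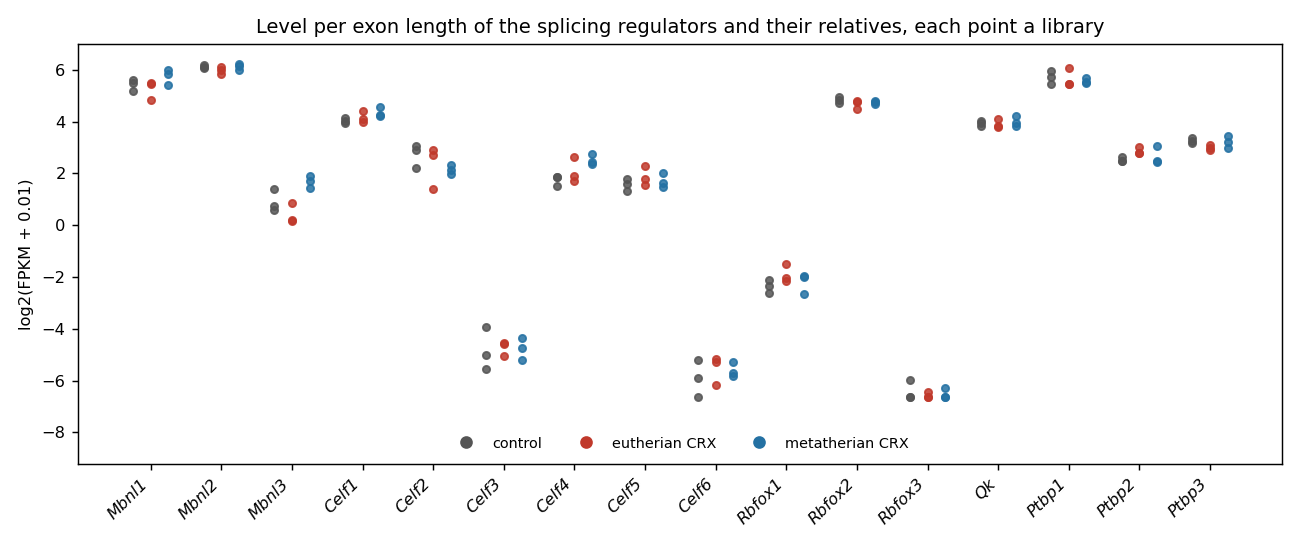
Level per exonic length, as log2(FPKM + 0.01), of the 9 genes and 7 relatives. Each point is a library, coloured by condition. Mbnl2 and Mbnl1 lie far above Mbnl3, and Celf3, Celf6 and Rbfox3 lie near the bottom of the axis.

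The balance inside each family was described per library from these levels. Mbnl3 made up 1.33%, 1.30% and 2.45% of the summed FPKM of the 3 muscleblind genes in control, 0.985%, 1.03% and 2.04% under eutherian CRX and 2.69%, 2.17% and 2.71% under metatherian CRX. Control replicate 3 thus lay above metatherian CRX replicate 2. The mean share was 1.70% ± 0.654, 1.35% ± 0.594 and 2.53% ± 0.306 (SD, n = 3), and the summed FPKM of the 3 genes was 116 ± 8.53, 104 ± 14.2 and 128 ± 9.44. The ratio of Mbnl1 to Mbnl2 was 0.539 to 0.678 in control, 0.506 to 0.686 under eutherian CRX and 0.561, 0.887 and 0.894 under metatherian CRX, the lowest of the last being replicate 3. The ratio of Celf2 to Celf1 was 0.514, 0.486 and 0.263 in control, 0.433, 0.404 and 0.121 under eutherian CRX and 0.256, 0.239 and 0.169 under metatherian CRX. All metatherian CRX libraries were below all control libraries, and the lowest ratio of all was in eutherian CRX replicate 3. The ratio of Ptbp2 to Ptbp1 was 0.112 ± 0.0265 in control, 0.146 ± 0.0207 under eutherian CRX and 0.136 ± 0.0390 under metatherian CRX.

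**Figure D5:**
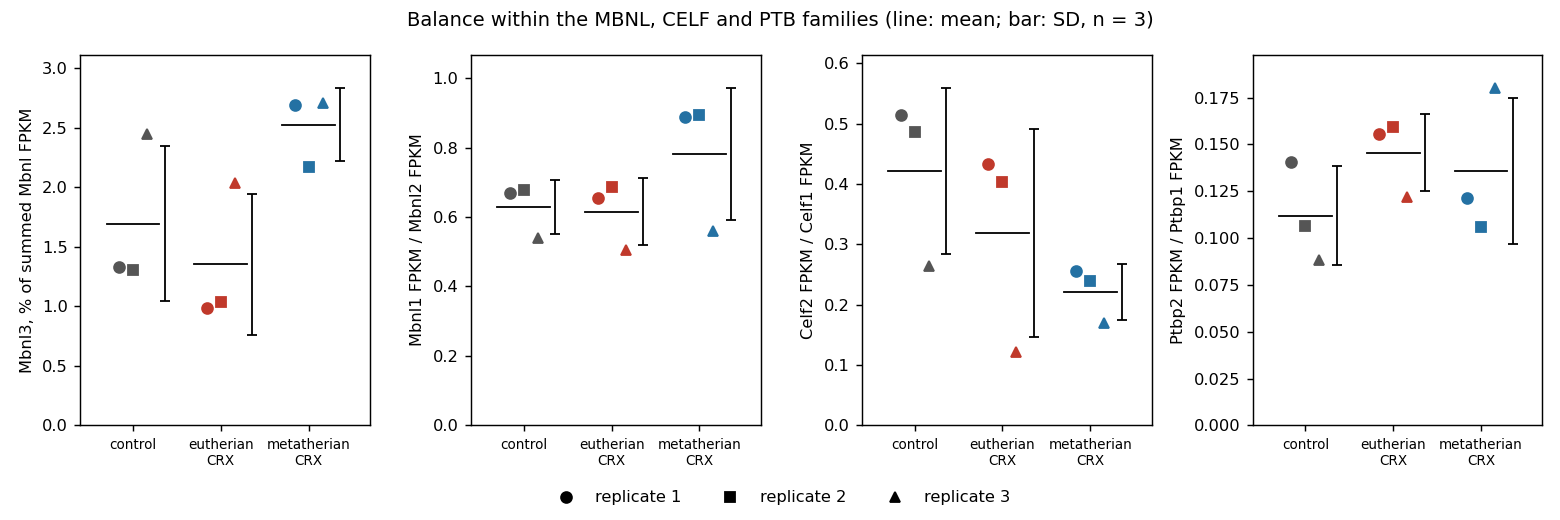
Share of Mbnl3 in the summed muscleblind FPKM (%), and the ratios of Mbnl1 to Mbnl2, Celf2 to Celf1 and Ptbp2 to Ptbp1 FPKM, in each library of the 3 conditions, with the mean (line) and SD (bar, n = 3). The Celf2 to Celf1 ratio is 0.256 or less in every metatherian CRX library and 0.263 or more in every control library.

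RefSeq promoter windows (GRCm38.p6, 250 bases upstream of a start) were matched for 8 of the 9 genes, Rbfox2 being the exception, which gave 13 windows. The CRX core motif TAATCC was searched on both strands because homeodomain factors of this class recognise it. It was in 0 of 13 windows, against 6.25% of all 32851 windows. The related TAATCT was in 1 window, of Celf2, against 7.31% of all, and the shared homeodomain core TAAT, which both motifs contain, was in 7 of 13, against 54.9% of all. A match describes the letters of these windows only. The windows of Mbnl3 (chrX:51206036-51206240, minus strand) and of the Celf2 start with TAATCT (chr2:7081382-7081552, minus strand) are shown, for the genes with the most positive and the most negative log2 fold change under metatherian CRX. Capitals mark TAAT and the reverse complement of TAATCT, and the 45 and 79 bases nearest the start, which are exonic in the count table, are left out.
Mbnl3: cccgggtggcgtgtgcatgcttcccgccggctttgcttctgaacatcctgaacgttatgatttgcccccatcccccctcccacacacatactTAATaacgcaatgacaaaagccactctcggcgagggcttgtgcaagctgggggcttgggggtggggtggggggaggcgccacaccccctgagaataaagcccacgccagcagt
Celf2: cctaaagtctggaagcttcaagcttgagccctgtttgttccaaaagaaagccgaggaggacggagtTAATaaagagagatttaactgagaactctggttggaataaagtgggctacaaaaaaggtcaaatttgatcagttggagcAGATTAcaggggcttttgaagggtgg

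Among 66 other splicing regulators, 61 passed the filter on low counts, and edgeR called 0 in each of the 3 comparisons. At an unadjusted p under 0.05 there were 4 higher and 6 lower genes for metatherian CRX against control, 1 higher and 5 lower for eutherian CRX against control and 3 of each between the CRX conditions, where 20.4%, 9.65% and 11.7% of all genes passed in either direction. The median log2 fold changes of the 61 genes were 0.01, 0.01 and -0.01, near those of all genes. DESeq2 called 5, 1 and 1 of them, against 9.56%, 3.46% and 2.62% of all genes, and limma voom 26, 8 and 20, against 41.6%, 14.2% and 43.2%. For metatherian CRX against control, the 13 SR proteins, which mostly promote exon inclusion, held 0 higher and 1 lower gene at an unadjusted p under 0.05, the 19 hnRNP proteins, which often oppose them, 0 and 1, the 6 kinases that phosphorylate SR proteins 0 and 2, and the 23 other tissue-regulated factors 4 and 2, where 9.61% of all genes were higher and 10.8% lower.

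The most positive values of these lists for metatherian CRX against control were in Rbm47 and Elavl2. Elavl2, a neuronal RNA-binding protein gene of the Hu family, was at 5.84 ± 1.20 CPM in control, 9.80 ± 1.83 CPM under eutherian CRX and 13.2 ± 3.57 CPM under metatherian CRX (SD, n = 3). Both CRX conditions lay above control without overlap, at 1.16 (SE 0.16, edgeR adjusted p = 0.0635) and 0.75 (SE 0.16, edgeR adjusted p = 0.131). Rbm47, an epithelial splicing factor gene, was at 1.70 ± 1.28 CPM in control, 1.78 ± 2.05 CPM under eutherian CRX and 3.04 ± 0.617 CPM under metatherian CRX (SD, n = 3). Its eutherian CRX libraries ran from 0.565 to 4.14 CPM, which is above the highest metatherian CRX library (3.54 CPM). The log2 fold change was 1.19 against control (SE 0.47, edgeR adjusted p = 0.218) and 1.39 against eutherian CRX (SE 0.49, edgeR adjusted p = 0.342). The most negative values were in Nova1, a neuronal splicing factor gene, at -0.97 (SE 0.52, edgeR adjusted p = 0.332), and in Msi1, a gene of neural progenitors, at -0.84 (SE 0.28, edgeR adjusted p = 0.170). Nova1 ranged from 1.83 to 24.6 CPM among the eutherian CRX libraries alone and was at -0.98 for metatherian against eutherian CRX (edgeR adjusted p = 0.521). For eutherian CRX against control, Rbm20, a titin splicing factor gene, was at -0.79 and Srrm4, a regulator of neuronal microexons, at -0.68 (edgeR adjusted p = 0.313 and 0.518), both below 3.1 CPM in all libraries. The remaining extremes were Rbfox1 at 0.48 for eutherian CRX against control, and Nova2 at 0.73 and Rbm24, a muscle splicing factor gene, at -0.77 between the CRX conditions, with edgeR adjusted p-values of 0.692, 0.437 and 0.507.

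The genes whose log2 CPM followed Mbnl3 most closely over the 9 libraries, among the 14598 other genes tested, were Tomm20 (Pearson r = 0.98, Spearman rho = 0.98), Asb4 (0.97 and 0.97), Plekha1 (0.97 and 0.95), Vtcn1 (0.97 and 0.88) and Ube2n (0.97 and 0.95). The libraries share their conditions and numbers, so these values describe likeness only. Tomm20, a receptor of mitochondrial protein import, was at 59.3 ± 7.11 CPM in control, 53.1 ± 5.79 CPM under eutherian CRX and 76.5 ± 5.95 CPM under metatherian CRX. Asb4 was at 3.63, 2.93 and 6.02 CPM, and Vtcn1 was below 1 CPM on average in each condition. Among the 9 genes themselves, Celf1 and Celf2 had the most negative correlation over the libraries, at r = -0.82 and rho = -0.85 (n = 9 libraries), and Mbnl3 had r = 0.61 with Celf1, -0.52 with Celf2, 0.30 with Mbnl1 and 0.35 with Mbnl2.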

How the data were processed

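The 9 RNA-seq libraries were made with poly-A selection and run on a single NextSeq500 chip. Paired reads were aligned by the authors to mm10 (GRCm38) with STAR, and their featureCounts table, deposited as raw counts per gene, kept every library separate. The annotation release is not given in the sources used here.

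Counts were analysed with edgeR 4.0.16 in R 4.3.3. Of the 22068 genes, 3756 had no count, and filterByExpr kept 14599, all 9 regulators among them. The main model held TMM factors, condition and the replicate number as a block. The paper states that samples were prepared in pairs but not which, so the use of the number as the block is an assumption. Genes were tested by quasi-likelihood, with p-values adjusted by Benjamini-Hochberg over all 14599 and a threshold of 0.05. The SE was the absolute log2 fold change over the root of F. CPM used TMM-scaled library sizes, log2 CPM a prior count of 2, and FPKM the merged exon length. The filter on a mean FPKM above 2 was only an alternative, because Mbnl3 passed it through metatherian CRX alone.

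Alternatives were the same model without the block, upper-quartile and relative-log-expression scaling, DESeq2 1.42.0, limma 3.58.1 voom with quality weights, other filters, only the 6 libraries compared, and libraries left out. On simulated data for metatherian CRX against control (14599 genes, 200 changed by 2 on the log2 scale), edgeR recovered 172 with 8 false calls, DESeq2 185 with 58 and voom 173 with 8.

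Nothing in the labels says that replicates were separate cultures or animals, so p-values measure only the spread between these libraries, which may be technical. Replicates differed by far more than sampling noise. The 9 genes and all lists were chosen with earlier results of these data known, and counts of called regulators leave out Mbnl3. Beside the 9 genes and their 7 relatives, the genes named were the 2 highest and 2 lowest log2 fold changes of the lists per comparison, where none was called, and the 5 genes closest to Mbnl3 by Pearson r, with Crx as the check of the transfected gene. Lppr3, as an overlapping gene, and the markers given singly were chosen after their values were seen. Recovery after puromycin lasted 48 h per the labels. The methods place a recovery of 48 h before puromycin and an overnight culture after it.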

Additional observations from a re-analysis of the deposited data

How the results depend on the processing

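With n = 3 a condition, the counts of calls changed with the test and with the libraries used. The calls over all genes were 2, 91 and 0 for metatherian CRX against control, eutherian CRX against control and metatherian against eutherian CRX. Without the replicate block they were 0, 0 and 0. The deviations of same-numbered libraries correlated over 0.1 in 8 of 9 pairs (0.042 to 0.628), and those of different numbers in 5 of 18. Control replicate 1 correlated with eutherian CRX replicate 2 (0.566) much as with eutherian CRX replicate 1 (0.568). The paper does not say which libraries were paired, so pairing by number is not shown. DESeq2 gave 1395, 505 and 383, limma voom 6066, 2078 and 6314, and the 6 libraries compared alone 548, 0 and 0. Leaving out libraries gave 0 to 3387, 0 to 578 and 0 to 3247. Of the 8 splicing regulators beside Mbnl3, 0 were called in each comparison; DESeq2 gave 0, 0 and 1, limma voom 3, 0 and 4, and leaving out libraries 0 to 3, 0 and 0 to 2. Of the 61 list genes, 0 were called; DESeq2 gave 5, 1 and 1, limma voom 26, 8 and 20, the 6 libraries alone 3, 0 and 0, and leaving out libraries 0 to 15, 0 to 2 and 0 to 13. The cause of these differences was not tested. DESeq2 called Mbnl1 at 0.48 for metatherian against eutherian CRX (adjusted p = 0.00933). limma voom also called Mbnl1 at 0.49, Celf1 at 0.16, Celf2 at -0.55 and Ptbp2 at -0.29 in that comparison (adjusted p = 0.000151, 0.0198, 0.000676 and 0.00716). From counts in place of FPKM, the Mbnl3 share was 2.65%, 2.13% and 3.84%, Ptbp2 to Ptbp1 0.178 with eutherian CRX, and Celf2 to Celf1 0.577 in control and 0.303 with metatherian CRX, because the exon lengths then drop out.

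The direction turned for 11 values of at most 0.19 in size. For metatherian CRX against control, Mbnl2 was at -0.0448 with limma voom and -0.00882 with the FPKM filter, Qk at -0.0327 and Ptbp2 at -0.0620 with limma voom, and leaving out libraries gave -0.0814 to 0.0691 for Mbnl2, -0.15 to 0.0194 for Rbfox2, -0.0493 to 0.13 for Qk, -0.22 to 0.0513 for Ptbp1 and -0.0974 to 0.29 for Ptbp2. For eutherian CRX against control the ranges were -0.24 to 0.01003 for Rbfox2, -0.12 to 0.0560 for Qk and -0.21 to 0.0770 for Ptbp1. For metatherian against eutherian CRX, limma voom gave -0.0125 for Rbfox2 and 0.0506 for Ptbp1, and leaving out libraries -0.57 to 0.0215 for Celf2, -0.0780 to 0.12 for Rbfox2 and -0.22 to 0.15 for Ptbp1. No scaling moved the median of all genes by over 0.1 on the log2 scale.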
